A study of Mus musculus with 6 samples.

Results

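The genes described here are the numbered zinc finger protein (Zfp) genes of the mouse macrophage-like cell line RAW264.7. They were chosen by symbol, as the rows of the deposited expression table named Zfp followed by a number. Zfp36 and its relatives, which share the name but bind AU-rich mRNA, were left out. This gave 288 genes of the 10780 in the table. The table lists only genes whose highest group mean is at least 0.5 FPKM, so measured values entered the choice through it. The choice was made with earlier results of these data known. Most proteins of this family carry tandem C2H2 zinc fingers, short folds in which a pair of cysteines and a pair of histidines hold a zinc ion and the fold touches DNA. Many mouse members also carry a KRAB box, which binds the corepressor Trim28, and Trim28 in turn brings the histone methyltransferase Setdb1 and heterochromatin proteins to the bound DNA. KRAB zinc finger genes lie in chromosomal groups of near relatives and are known for silencing retroviruses and other repeats.

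RAW264.7 cells come from a tumour induced by Abelson murine leukaemia virus and are widely used as a stand-in for macrophages. The 6 libraries fell into 3 groups of 2, each holding replicates numbered 2 and 3, and replicate 1 was not analysed here. The groups were cells given LPS (lipopolysaccharide, the bacterial product sensed by Tlr4) at 10 ng/ml plus Sal-B at 50 μmol/L, cells given LPS at 10 ng/ml, and untreated control cells. No group had Sal-B without LPS. The treatment time and the full name of Sal-B are not given in the sources used here. Nothing in the labels states that replicates came from different cultures, and each p-value therefore reflects the spread of the libraries alone, which may be technical.

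Levels are given as FPKM, fragment counts scaled by transcript length and library size, as deposited. Between 8639 and 9847 genes reached 1 FPKM in a library. A rough depth from the spacing of the lowest values, resting on 3 to 11 values a library, was between 6441000 and 8888000 fragments. At that depth 1 FPKM of a Zfp transcript of median length, 2011 bases, was about 12.95 to 17.87 fragments, so the many members near or under 1 FPKM were counted from few fragments. Of 9 macrophage markers, 8 were in the table, and Cd68 had 392 and 395 FPKM with LPS plus Sal-B, 897 and 915 with LPS and 823 and 798 in control. Csf1r had 29.4 and 30.4 FPKM with LPS plus Sal-B, 39.4 and 38.1 with LPS and 149 and 117 in control. Of the 9 marker rows tested (Itgam has 2), Csf1r, Lyz2, Fcgr1 and 1 row of Itgam fell with LPS and none rose as deposited by limma, and 1 fell and 4 rose at the same median. Of the 16 markers of B cells, T cells, fibroblasts and epithelium, Cd79b alone was in the table, at 0.305 to 1.43 FPKM.

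Sequences of a few members show what the family shares. The stretches below are the coding bases of the first finger that the usual linker follows, with that linker, in 5 members on chromosome 17, read from GENCODE M21 transcripts on GRCm38. They lie at chr17:21560453-21560530 (plus strand) for Zfp52, chr17:21463854-21463931 (plus strand) for Zfp51, chr17:21587193-21587270 (plus strand) for Zfp948, chr17:22454996-22455073 (plus strand) for Zfp946 and chr17:32798321-32798398 (minus strand) for Zfp811. They are shown because these genes gave the largest rise with LPS (Zfp811), a fall with LPS (Zfp946) and the falls with Sal-B (Zfp51, Zfp52 and Zfp948). Capitals mark the codons of the cysteines and histidines that hold the zinc.
Zfp52: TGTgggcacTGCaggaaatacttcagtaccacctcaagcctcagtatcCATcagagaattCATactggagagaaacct
Zfp51: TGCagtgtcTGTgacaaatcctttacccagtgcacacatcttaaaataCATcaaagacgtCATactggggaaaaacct
Zfp948: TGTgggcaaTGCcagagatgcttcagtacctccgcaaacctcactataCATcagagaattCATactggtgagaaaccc
Zfp946: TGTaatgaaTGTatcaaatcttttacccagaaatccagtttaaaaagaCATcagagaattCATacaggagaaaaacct
Zfp811: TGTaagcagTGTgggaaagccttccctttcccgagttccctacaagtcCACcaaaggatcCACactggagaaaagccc

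By the coding sequence, 161 members had 10 or more fingers, 85 had 5 to 9, 37 had 1 to 4 and 5 had none that matched the pattern, with 36 as the highest count (Zfp142). The core of the KRAB box, searched as LY, any pair of residues, VM, any residue and E, was found in 147 members and not in 141. The search was strict, and Zfp445, described elsewhere as a KRAB gene, had no match. Members with the core had a median of 11 fingers, and members without it 8. Placing members within 500000 bases of each other together gave 13 groups of at least 5, which held 83 of the 147 members with the core (56.5%) and 41 of the 141 without it (29.1%).

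Promoters from RefSeq (GRCm38.p6, 250 bases before the transcript start to 50 after it) matched 245 of the 288 members by symbol, 2 of which share the symbol Zfp935, and gave 293 promoters of 244 symbols. The letters GGGCGG, the box bound by Sp proteins, stood on either strand in 45.4% of the Zfp promoters and in 35.7% of all promoters. The share was 34.9% for members with the KRAB core and 55.8% for members without it. The ETS core CCGGAAG stood in 20.1% of the Zfp promoters and 8.86% of all, and TATAAA in 5.80% and 13.6%. A form of the κB site, which NF-κB binds, stood in 2.05% of the Zfp promoters and in 1.20% of all, and AAGATGG, the core of the YY1 site, in 8.19% and 6.34%. The 4 promoters printed here are those of Zfp52 and Zfp948, which fell with Sal-B, of Zfp946, which fell with LPS, and of Zfp326, which had the largest rise with Sal-B. In the first 3 the capitals mark AGTGGGAGGG, a stretch picked because it was seen in these promoters. It stood in 5 of the 20 promoters of their chromosomal group (Zfp52, Zfp53, Zfp820, Zfp946 and Zfp948) and in 0.548% of all promoters outside it, and neighbours of common descent share such stretches. In Zfp326 the capitals mark the 4 copies of GGGCGG, all on the other strand. The windows are chr17:21535289-21535588, chr17:21566728-21567027, chr17:22423952-22424251 and chr5:105876318-105876617, each on the plus strand, and that of Zfp52 lies well upstream of the GENCODE gene model. A match is a description of these letters and not a bound site.
Zfp52: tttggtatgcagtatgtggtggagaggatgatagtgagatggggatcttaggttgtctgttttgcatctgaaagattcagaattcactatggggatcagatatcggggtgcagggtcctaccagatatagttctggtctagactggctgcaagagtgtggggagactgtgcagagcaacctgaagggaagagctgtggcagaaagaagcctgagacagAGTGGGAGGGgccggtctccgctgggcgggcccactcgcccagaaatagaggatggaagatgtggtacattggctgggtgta
Zfp948: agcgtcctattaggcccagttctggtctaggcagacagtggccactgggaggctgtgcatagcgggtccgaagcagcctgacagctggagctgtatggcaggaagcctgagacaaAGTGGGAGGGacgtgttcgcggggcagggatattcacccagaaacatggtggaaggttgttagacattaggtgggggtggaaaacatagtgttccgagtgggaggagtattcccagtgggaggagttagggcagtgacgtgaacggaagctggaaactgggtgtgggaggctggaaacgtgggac
Zfp946: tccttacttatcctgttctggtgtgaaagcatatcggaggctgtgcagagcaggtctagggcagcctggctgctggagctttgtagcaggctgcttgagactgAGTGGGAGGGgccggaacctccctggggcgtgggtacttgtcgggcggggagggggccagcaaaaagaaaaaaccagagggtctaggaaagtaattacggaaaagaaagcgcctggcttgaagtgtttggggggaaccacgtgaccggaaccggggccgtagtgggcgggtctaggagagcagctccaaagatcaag
Zfp326: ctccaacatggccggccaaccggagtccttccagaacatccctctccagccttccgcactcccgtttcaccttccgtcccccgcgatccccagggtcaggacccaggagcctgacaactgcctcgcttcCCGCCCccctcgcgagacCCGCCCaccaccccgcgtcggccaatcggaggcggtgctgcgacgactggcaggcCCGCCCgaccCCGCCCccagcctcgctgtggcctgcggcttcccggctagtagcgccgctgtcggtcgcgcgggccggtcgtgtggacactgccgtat

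The Zfp transcripts were low and were lowest in treated cells. Their mean over the 6 libraries ran from 0.196 FPKM (Zfp784) to 28.8 FPKM (Zfp91), with a median of 1.60 FPKM. The median member stood at 0.777 and 0.781 FPKM in LPS plus Sal-B libraries, at 1.09 and 0.979 FPKM in LPS libraries and at 2.37 and 2.73 FPKM in control libraries. Both control libraries lay above all 4 treated libraries. In bulk RNA, fewer cells with a transcript and less of it per cell cannot be told apart. The members at 1 FPKM or more numbered 128 and 121 with LPS plus Sal-B, 150 and 143 with LPS and 240 and 257 in control. Summed over all 288, their FPKM made up 0.187% and 0.193% of the total with LPS plus Sal-B and 0.186% and 0.181% with LPS. In control their FPKM made up 0.356% and 0.406%. Without mitochondrial transcripts in the total, these shares were 0.253% and 0.258% with LPS plus Sal-B and 0.227% and 0.223% with LPS. In control they were 0.502% and 0.586%. Members with the KRAB core summed to 124 and 127 FPKM with LPS plus Sal-B, and to 207 and 204 FPKM with LPS. Members without it summed to 460 and 471 FPKM, and to 482 and 475 FPKM, in the same order. Control was the highest of the 3 groups for 247 members (85.8%) and for 65.7% of all genes. These shares are not matched for level. The table lists only genes whose highest group mean is at least 0.5 FPKM, so low members could enter it through control alone. The median over all genes was 3.80 and 3.91 FPKM with LPS plus Sal-B, 4.62 and 4.56 with LPS and 6.81 and 6.57 in control. Of all genes, 80.1% and 80.3% reached 1 FPKM with LPS plus Sal-B, 83.9% and 83.6% with LPS and 91.2% and 91.3% in control.

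**Figure D1:**
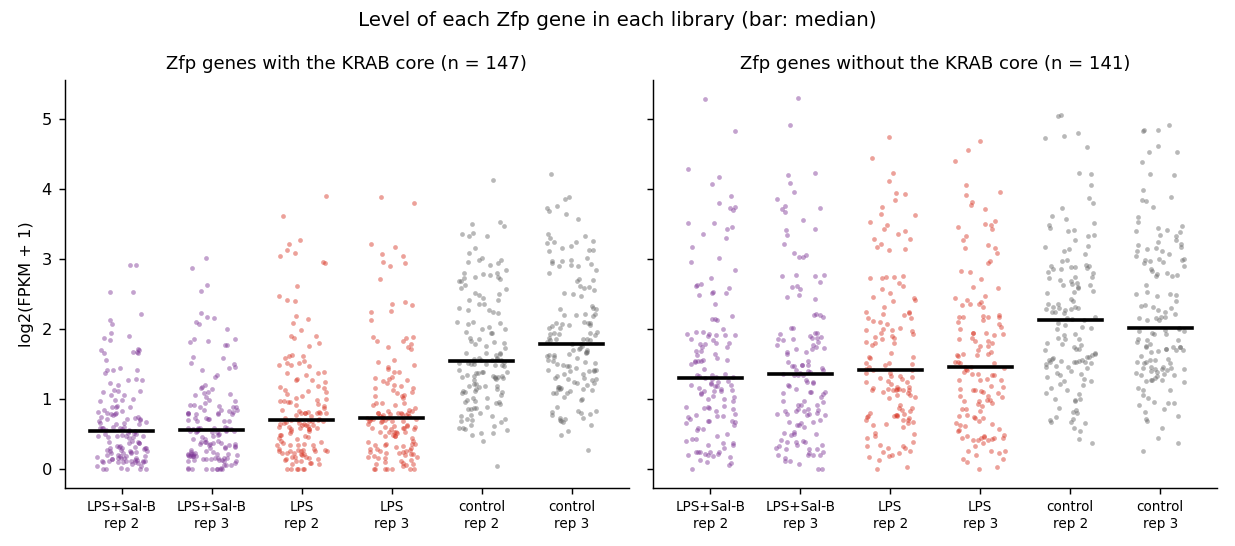
Each point is a Zfp gene in a library, on a log2(FPKM + 1) scale, with the KRAB core on the left and without it on the right, and bars give the median. The control medians stand above the treated ones in both panels, and the medians with the core (0.464 and 0.469 FPKM with LPS plus Sal-B, 0.634 and 0.657 with LPS, 1.93 and 2.47 in control) lie below those without it in every library.

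The first comparison asks which members LPS changed. Values were compared on the log2(FPKM + 1) scale, which understates the change of low genes, in a limma model of all 6 libraries, and 241 members passed the filter of 1 FPKM in at least 2 libraries. The other 47 were too low and were not tested. With LPS, 180 of the 241 fell and 8 rose at a Benjamini-Hochberg adjusted p under 0.05, against 48.9% lower and 14.2% higher among all 10014 genes tested. The median log2 fold change of the tested members was -0.84, and that of the other genes tested was -0.39. The deposited values fell across the whole table with LPS, with a median of -0.40 over all genes tested. Each library was therefore also scaled to the same median, where the background was 26.5% lower and 28.9% higher. On that scale 124 members fell and 24 rose, and their median was -0.48 against 0.027 for the other genes.

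The filter bears on these counts, because 77 of the 241 reached 1 FPKM in both control libraries and in no other, and could hardly have passed unless control was high. Members were therefore set beside other genes above the same floor of mean level over the 6 libraries, and then beside others by band of level. Among members with a mean of at least 2 FPKM, all 121 of which were tested, 81 fell (66.9%) and 7 rose, with a median of -0.76. Among the 8178 other genes above that floor 46.3% fell, with a median of -0.35. The floor does not match levels. At 2 to 4 FPKM lay 62 of the 121 members and 1863 of the 8178 others. At 16 FPKM or more lay 7 members and 2221 others, so the shares by band below are the closer comparison. After scaling to the same median, 50 of the 121 fell (41.3%) and 19 rose, beside 23.4% and 32.3% of the others. Leaving out a library moved the 180 falls by less than 1.5 times, but the rises numbered 2 without LPS replicate 2, 4 without LPS replicate 3 or either LPS plus Sal-B library, and 14 without control replicate 3. The control pair had the widest spread (SD of the difference between its libraries over tested members 0.393, against 0.155 for LPS plus Sal-B and 0.270 for LPS, on the log2 scale).

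By band of mean level, the share lower with LPS was 77.4% of 62 members at 2 to 4 FPKM and 57.3% of the others, and 63.9% of 36 members at 4 to 8 FPKM and 50.6% of the others. From 8 to 16 FPKM the order turned, with 31.3% of 16 members lower, beside 48.1% of the others. On the scale of equal medians 7 of those 16 rose (43.8%) and 1 fell, beside 32.4% higher and 23.3% lower among the others in that band. Above 16 FPKM, 5 of 7 members fell, beside 31.5% of the others.

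**Figure D2:**
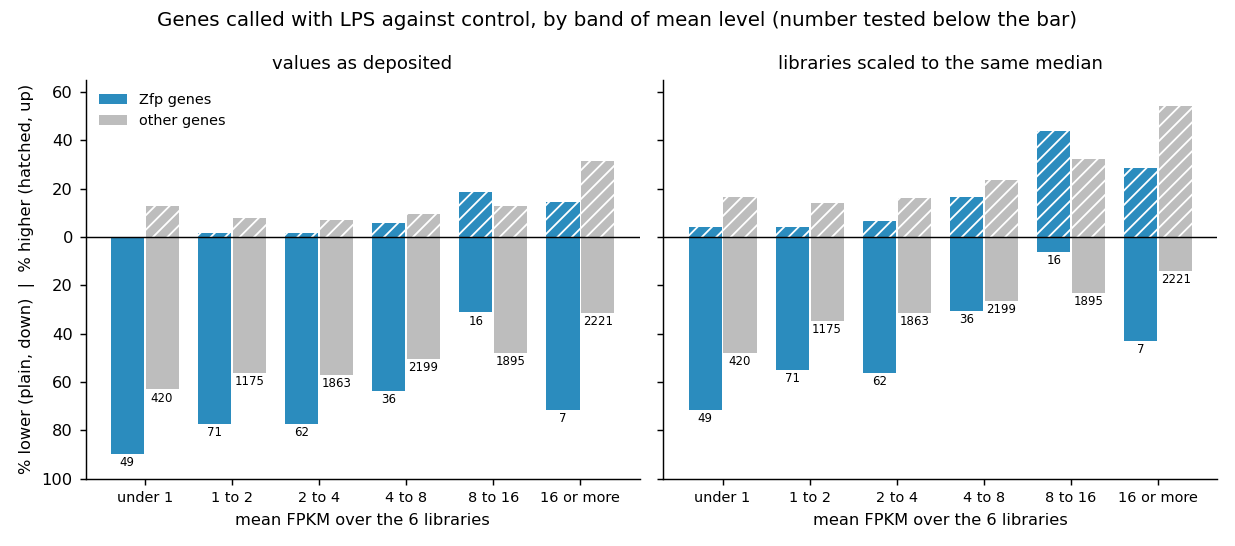
Share of genes higher (hatched, upward) and lower (plain, downward) with LPS against control by limma, by band of mean FPKM over the 6 libraries, for Zfp genes (blue) and the other genes (grey), with the number tested under each bar. At 2 to 4 FPKM 77.4% of Zfp genes were lower as deposited and 56.5% at the same median, beside 57.3% and 31.3% of the others, while at 8 to 16 FPKM the Zfp share lower was the smaller.

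Members were then split by the KRAB core. Of the 115 tested with the core, 100 fell with LPS (87.0%) and 3 rose, with a median of -0.96. Of the 126 without it, 80 fell (63.5%) and 5 rose, with a median of -0.64. At the same median the counts were 75 lower and 4 higher with the core, and 49 lower and 20 higher without it. Members with the core were also lower in level, with a median mean of 1.08 FPKM beside 2.20 FPKM without it. Among those with a mean of at least 2 FPKM, 36 of 44 with the core fell (81.8%) and 45 of 77 without it (58.4%). The difference lay mostly at 2 to 4 FPKM, where 27 of 29 with the core (93.1%) and 21 of 33 without it (63.6%) fell. At 4 to 8 FPKM 8 of 12 with the core (66.7%) and 15 of 24 without it (62.5%) fell. At the same median those counts at 4 to 8 FPKM were 2 of 12 and 9 of 24. At 8 to 16 FPKM 1 of 3 and 4 of 13 fell as deposited. By finger number, 82.5% of the 126 tested members with 10 or more fingers fell, 68.8% of 77 with 5 to 9, 64.7% of 34 with 1 to 4, and 1 of 4 with none. The core, many fingers and a low level came together in these genes, and their parts in the counts were not tested. Of the members tested with the core 56 passed the filter through control alone, and of those without it 21. Short reads of near relatives can be assigned to the wrong gene: 41 members shared over 20% of their 50-base stretches with another gene and 25 overlapped a coding gene on the same strand. Among the 197 tested members with neither, 139 fell (70.6%) and 7 rose with LPS.

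**Figure D3:**
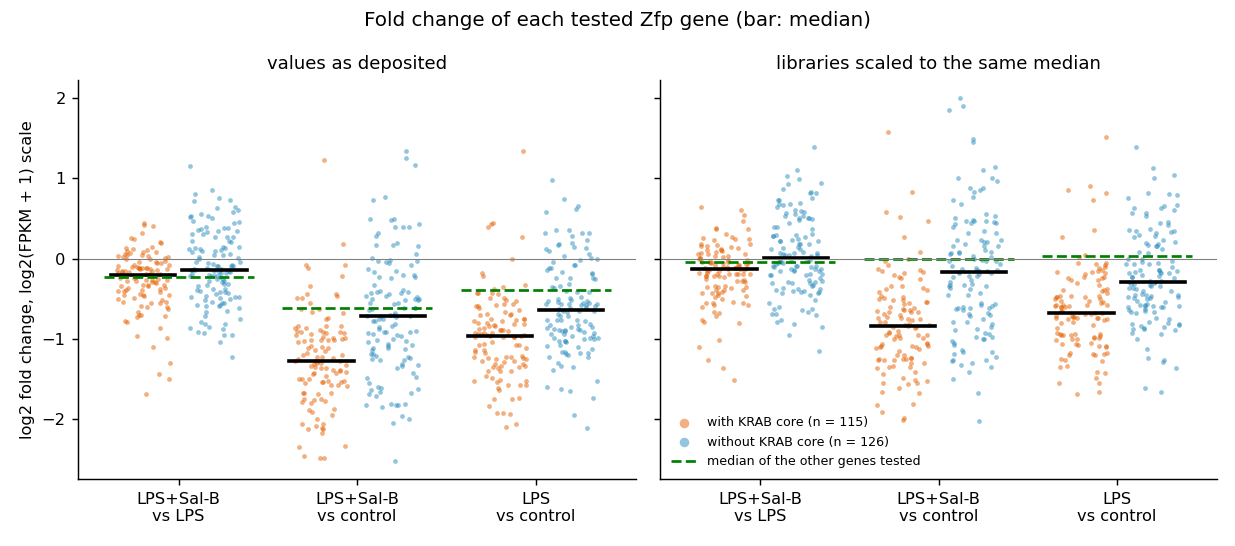
Log2 fold change of each tested Zfp gene in the 3 comparisons, as deposited (left) and at the same median (right), for 115 genes with the KRAB core (orange) and 126 without it (blue), with black bars for their medians and green dashes for the median of the other genes tested. The orange median lies at -0.96 for LPS against control and at -0.21 for LPS plus Sal-B against LPS as deposited.

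The largest falls with LPS were in genes of little known function. Zfp362 had 2.48 and 1.90 FPKM in LPS libraries, against 12.3 and 13.2 FPKM in control libraries (log2 fold change -2.11 ± 0.13 SE, adjusted p = 0.000261). Zfp946, a KRAB gene with 11 fingers, had 1.81 and 2.66 FPKM in LPS libraries, against 10.6 and 11.9 FPKM in control (-1.93 ± 0.15 SE, adjusted p = 0.000433). Zfp760, of the same chromosome 17 group, had 1.03 and 0.742 FPKM with LPS and 5.87 and 6.63 FPKM in control (-1.94 ± 0.13 SE, adjusted p = 0.000299). In all 3 the groups lay far apart, and the falls held at the same median (-1.67, -1.49 and -1.55). Zfp239 had 0.394 and 0.103 FPKM with LPS, against 4.29 and 3.37 FPKM in control (-1.96 ± 0.16 SE). It reached 1 FPKM in the control libraries alone and passed the filter only through them. Zfp825, Zfp971, Zfp729b and Zfp97 fell by 2.10, 2.07, 1.93 and 1.84 on the log2 scale, but 28.7%, 42.4%, 40.8% and 83.1% of their 50-base stretches also occur in other genes, so their reads may be shared with those genes.

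The rises with LPS were few. Zfp811, a KRAB gene with 13 fingers, had 2.76 and 2.47 FPKM in LPS libraries, against 0.399 and 0.461 FPKM in control libraries (1.34 ± 0.10 SE, adjusted p = 0.000412). It was the highest rise among members and the groups did not overlap. Its level stayed at 2.25 and 2.43 FPKM with LPS plus Sal-B. Zfp593, a factor of large ribosomal subunit assembly, had 9.27 and 9.09 FPKM with LPS and 5.05 and 3.40 FPKM in control (0.98 ± 0.16 SE, adjusted p = 0.00401). It overlaps the antisense gene E130218I03Rik, and a stranded kit is named in the labels, but no counting step is stated, so reads of the 2 strands may not have been told apart. Zfp335, part of a histone H3K4 methyltransferase complex and needed for T cell maturation, had 8.07 and 7.95 FPKM with LPS and 3.94 and 5.95 FPKM in control (0.62 ± 0.17 SE, adjusted p = 0.0251). Zfp948 had 13.9 and 12.9 FPKM with LPS and 10.2 and 9.04 FPKM in control (0.45 ± 0.10 SE, adjusted p = 0.0119), and Zfp7 had 8.30 and 7.26 FPKM with LPS and 5.45 and 5.54 FPKM in control (0.43 ± 0.11 SE, adjusted p = 0.0163). Zfp143, an activator bound at many promoters, had 10.3 FPKM in both LPS libraries, against 7.72 and 7.90 FPKM in control (0.36 ± 0.09 SE, adjusted p = 0.0182). Zfp598, the ubiquitin ligase that marks collided ribosomes, had 20.9 and 20.2 FPKM with LPS and 17.7 and 14.9 FPKM in control (0.32 ± 0.11 SE, adjusted p = 0.0476). Zfp142 had 3.47 and 3.50 FPKM with LPS and 2.63 and 2.60 FPKM in control (0.31 ± 0.10 SE, adjusted p = 0.0379). Zfp335 overlaps Pcif1 and Zfp142 overlaps Plcd4 on the opposite strand, and Zfp7 overlaps Gm49527 on its own.

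These small rises rested on the full set of libraries. Zfp335, Zfp143, Zfp598 and Zfp142 missed the threshold when any 1 of the 4 treated libraries was left out (adjusted p from 0.0532 to 0.102, 0.0567 to 0.083, 0.103 to 0.18 and 0.0916 to 0.124), and Zfp948 and Zfp7 missed it without LPS replicate 2 (adjusted p of 0.0729 and 0.0902). All 8 rises were larger at the same median, from 0.67 for Zfp142 to 1.51 for Zfp811. That scaling moved the median over all genes tested from -0.40 to 0.013, so the larger values are no further support for the rises.

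The second comparison asks how Sal-B changed the members in cells given LPS. With LPS plus Sal-B against LPS, 56 of 241 fell (23.2%) and 18 rose (7.47%), beside 31.8% lower and 10.5% higher among all genes tested. The median was -0.18 for the tested members and -0.23 for the other genes. At the same median 37 fell and 29 rose, beside 20.2% and 17.6% of all genes. Among members with a mean of at least 2 FPKM 42 of 121 fell (34.7%), and 34.7% of the other genes above that floor did. On the scale of equal medians those shares were 22.3% and 21.6%. That floor does not match levels. By band, 12.7% of members and 18.8% of the others fell at 1 to 2 FPKM, and 27.4% and 25.1% at 2 to 4 FPKM. At 2 to 4 FPKM the order turned at the same median (14.5% and 16.3%). At 4 to 8 FPKM the shares were 47.2% and 31.2%, and 36.1% and 19.1% at the same median. At 8 to 16 FPKM they were 43.8% and 36.04%, and above that, with 7 members, 14.3% and 45.2%. Members thus lay above the others in some bands and below them in others. Of members with the core 24 fell and 2 rose, and of members without it 32 fell and 16 rose. The counts moved with single libraries: the falls numbered 12 and 14 without LPS plus Sal-B replicate 2 or 3, 24 and 25 without LPS replicate 2 or 3, and 88 and 89 without control replicate 2 or 3, and the rises 3, 2, 9, 7, 28 and 28 in the same order.

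The 8 largest rises with Sal-B were all in genes without the KRAB core, which 126 of the 241 tested members lack. Over all rises 12.7% of members without the core and 1.74% with it were higher, beside 10.5% of all genes. Zfp326, a subunit of the DBIRD complex that links transcript elongation to splicing, had 14.0 and 14.6 FPKM in LPS plus Sal-B libraries, against 5.70 and 6.05 FPKM in LPS libraries (1.15 ± 0.11 SE, adjusted p = 0.0021). In control it had 5.45 and 4.64 FPKM, so that LPS plus Sal-B stood apart from both other groups. Zfp281, a regulator of pluripotent cells, had 17.1 and 17.7 FPKM with LPS plus Sal-B, 9.60 and 8.73 FPKM with LPS and 6.504 and 7.89 FPKM in control. It rose by 0.86 ± 0.12 (SE) against LPS (adjusted p = 0.0048, and 0.0504 without LPS plus Sal-B replicate 3). Zfp710 had 9.30 and 9.70 FPKM with LPS plus Sal-B, 5.33 and 5.10 FPKM with LPS and 8.66 and 8.25 FPKM in control (0.76 ± 0.09 SE against LPS, adjusted p = 0.00348). Its LPS libraries were the low ones, and the other groups lay close together as deposited.

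Zfp91, which ubiquitinates the kinase NIK of the noncanonical NF-κB pathway, was the most abundant member. It had 38.2 and 38.4 FPKM with LPS plus Sal-B, 25.8 and 24.7 FPKM with LPS and 23.2 and 22.3 FPKM in control (0.58 ± 0.08 SE against LPS, adjusted p = 0.00489). It shares its strand with Cntf, whose reads may be counted with it. Zfp335 had 12.4 and 13.5 FPKM with LPS plus Sal-B, above 8.07 and 7.95 FPKM with LPS (0.63 ± 0.17 SE, adjusted p = 0.0342). Zfp318, which controls the choice of IgD mRNA in B cells, had 4.71 and 5.10 FPKM with LPS plus Sal-B, 2.94 and 2.85 FPKM with LPS and 6.30 and 7.42 FPKM in control (0.60 ± 0.11 SE against LPS, adjusted p = 0.0112). Zfp579 had 3.41 and 3.60 FPKM with LPS plus Sal-B and 1.59 and 1.87 FPKM with LPS. Zfp687, which overlaps the antisense gene Pi4kb, had 3.58 and 3.63 FPKM with LPS plus Sal-B and 1.69 and 1.90 FPKM with LPS. Both rose by 0.72 against LPS. Of these, Zfp91, Zfp579 and Zfp687 missed the threshold without either LPS plus Sal-B library (adjusted p from 0.0566 to 0.0634), and Zfp335 and Zfp318 when any 1 treated library was left out (0.125 to 0.165 and 0.0619 to 0.0954).

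The falls with Sal-B were larger, and 7 of the 8 largest were in genes with the KRAB core, which 115 of the 241 tested members carry. Over all falls the order was the other way, with 20.9% of members with the core and 25.4% without it lower, beside 31.8% of all genes. Of the 8, 3 (Zfp51, Zfp52 and Zfp948) are neighbours on chromosome 17. Zfp52 had 3.38 and 2.99 FPKM with LPS plus Sal-B, against 11.3 and 13.8 FPKM with LPS (-1.69 ± 0.15 SE, adjusted p = 0.00208), while control had 9.12 and 11.5 FPKM. Zfp51 had 1.68 and 1.72 FPKM with LPS plus Sal-B, against 6.68 and 6.67 FPKM with LPS (-1.51 ± 0.16 SE, adjusted p = 0.00251), and 9.11 and 12.6 FPKM in control. Zfp948 had 4.78 and 4.86 FPKM with LPS plus Sal-B, against 13.9 and 12.9 FPKM with LPS (-1.31 ± 0.10 SE, adjusted p = 0.00175). In all 3 genes the LPS plus Sal-B libraries lay below every other library. Zfp35, a gene of 17 fingers without the core, had 0.553 and 0.591 FPKM with LPS plus Sal-B, 2.51 and 2.83 FPKM with LPS and 8.11 and 8.01 FPKM in control, 3 levels with no overlap (-1.22 ± 0.10 SE against LPS, adjusted p = 0.00194). Zfp715 and Zfp958 were ordered the same way and fell by 1.10 and 0.97 against LPS. Zfp984 fell by 1.43 but shares 57.4% of its 50-base stretches with other genes. Zfp655 fell by 0.99, and missed the threshold when any 1 treated library was left out (adjusted p from 0.0624 to 0.087).

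**Figure D4:**
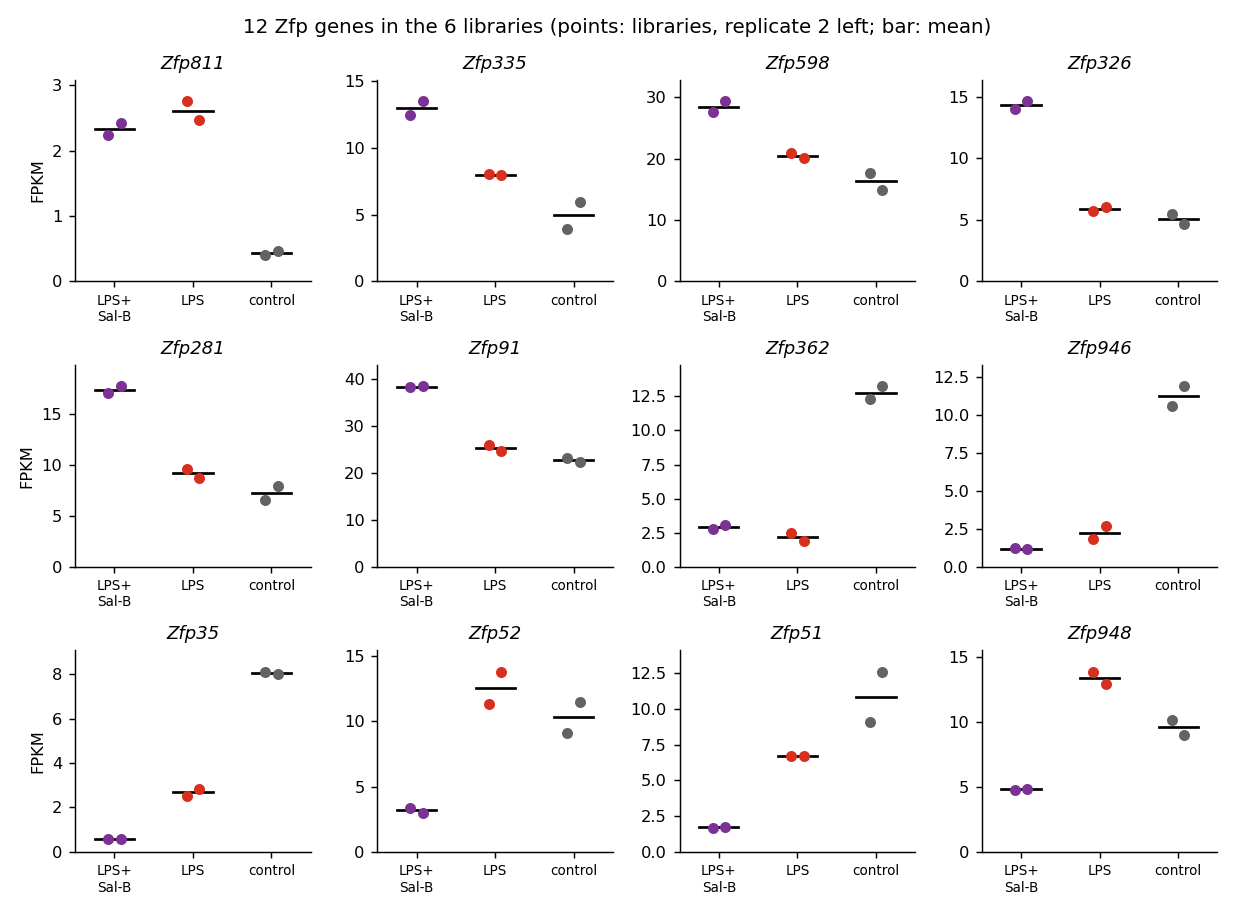
FPKM of 12 Zfp genes in each library, with LPS plus Sal-B, LPS and control from left to right, points for libraries and bars for means, each panel on its own axis from 0. Zfp811 is high in both treatments, Zfp326 and Zfp281 are highest with LPS plus Sal-B, Zfp362 and Zfp946 are low in both treatments, and Zfp52, Zfp51 and Zfp948 are lowest with LPS plus Sal-B.

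With LPS plus Sal-B against control, 191 of 241 members fell (79.3%) and 9 rose, beside 58.8% lower and 14.0% higher among all genes tested, and the median was -1.02 against -0.61 for the other genes. At the same median 135 fell and 30 rose, beside 32.0% and 31.8%. Among members with a mean of at least 2 FPKM 91 of 121 fell (75.2%), beside 57.4% of the others, a floor that does not match levels. By band, 82.3% of members and 64.7% of the others fell at 2 to 4 FPKM, and 72.2% and 60.9% at 4 to 8 FPKM. At 8 to 16 FPKM the shares were 56.3% and 58.8%, and at 16 FPKM or more 71.4% and 46.8%. Of the 115 with the KRAB core 106 fell and 1 rose, and of the 126 without it 85 fell and 8 rose. At the same median 85 fell and 4 rose with the core, and 50 fell and 26 rose without it. Through control alone 77 of the 241 had passed the filter, 56 of them with the core and 21 without it. The counts against control are therefore given as a description. Leaving out a library changed the rises most without control replicate 3, to 16. This comparison shares its libraries with the other comparisons, so the 3 are not independent of each other.

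The 8 largest falls in LPS plus Sal-B against control ran from -2.53 ± 0.10 SE for Zfp35 (adjusted p = 8.03e-05) to -2.13 ± 0.21 SE for Zfp971. Zfp944, another chromosome 17 member, had 0.428 and 0.461 FPKM with LPS plus Sal-B, 1.44 and 1.35 FPKM with LPS and 6.56 and 7.68 FPKM in control (-2.49 ± 0.11 SE against control, adjusted p = 9.02e-05). The single rise with the core as deposited was Zfp811 (1.22 ± 0.10 SE). The others included Zfp326 (1.34 ± 0.11 SE, adjusted p = 0.000223), Zfp335 (1.25 ± 0.17 SE), Zfp281 (1.17 ± 0.12 SE), Zfp598 (0.77 ± 0.11 SE) and Zfp91 (0.73 ± 0.08 SE). Zfp598 had 27.5 and 29.4 FPKM with LPS plus Sal-B, above all 4 other libraries. Zfp219, which overlaps Arhgef40 and Tmem253 on the opposite strand, had 2.82 and 2.81 FPKM with LPS plus Sal-B and 1.88 and 1.54 FPKM in control (0.50 ± 0.11 SE), and missed the threshold without either LPS plus Sal-B library (adjusted p of 0.0609 and 0.0585). Zfp523 had 5.26 and 5.86 FPKM with LPS plus Sal-B and 3.88 and 3.46 FPKM in control (0.49 ± 0.11 SE), and missed it without LPS plus Sal-B replicate 3 (adjusted p = 0.076).

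A panel of 23 members with known roles held 22 genes of the table, Zfp57 not being among its rows. With LPS 11 fell and 4 rose as deposited, and 6 fell and 8 rose at the same median, beside 48.9% and 14.2% of all genes as deposited and 26.5% and 28.9% at the same median. With LPS plus Sal-B against LPS 9 fell and 6 rose, and 2 fell and 7 rose at the same median, beside 31.8% and 10.5%, and 20.2% and 17.6%. Zfp809, which recognises the primer binding site of murine leukaemia viruses and recruits Trim28, had 2.84 and 3.48 FPKM with LPS plus Sal-B, 4.56 and 5.57 FPKM with LPS and 9.30 and 12.3 FPKM in control. It fell with LPS as deposited (-0.96 ± 0.17 SE, adjusted p = 0.00539), and at the same median the change was -0.50 (adjusted p = 0.0587). Zfp445, which protects imprinted methylation, had 4.70 and 5.13 FPKM with LPS plus Sal-B, 7.83 and 7.54 FPKM with LPS and 10.2 and 13.8 FPKM in control. Its fall with LPS (-0.57 ± 0.15 SE, adjusted p = 0.0213) became -0.11 at the same median, and missed the threshold without either LPS library (adjusted p of 0.0806 and 0.0982).

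The panel members described next all fell with LPS as deposited. Zfp207, a spindle and splicing factor, had 9.78 and 9.22 FPKM with LPS plus Sal-B, 14.3 and 14.2 FPKM with LPS and 26.9 and 27.8 FPKM in control (-0.90 ± 0.09 SE for LPS against control, adjusted p = 0.000652). Zfp106, an RNA-binding protein needed by motor neurons, had 11.99 and 12.3 FPKM with LPS plus Sal-B, 14.4 and 12.2 FPKM with LPS and 26.02 and 27.5 FPKM in control (-0.96 ± 0.11 SE for LPS against control, adjusted p = 0.00107). In both the control pair stood apart, and the falls with LPS held at the same median (-0.41 and -0.48). Zfp217, an oncoprotein of corepressor complexes, had 1.93 and 2.20 FPKM with LPS plus Sal-B, 1.52 and 2.20 FPKM with LPS and 5.52 and 6.88 FPKM in control (-1.34 ± 0.17 SE for LPS against control, adjusted p = 0.00146). Zfp384, a transcription factor of matrix genes, had 2.36 and 2.37 FPKM with LPS plus Sal-B, 3.63 and 3.39 FPKM with LPS and 9.22 and 9.45 FPKM in control (-1.20 ± 0.09 SE for LPS against control, adjusted p = 0.000425). Zfp346, which binds double-stranded RNA, and Zfp622, which matures the large ribosomal subunit, fell with LPS by 0.77 and 0.57, and neither passed at the same median (-0.31 and -0.15). Zfp346 also missed the threshold without LPS replicate 2 (adjusted p = 0.0806).

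Zfp131, Zfp148, Zfp263 and Zfp638 did not pass with LPS as deposited (-0.19, -0.25, -0.49 and -0.014), and Zfp638 alone of them passed at the same median, as a rise of 0.35 (adjusted p = 0.0463). Zfp830 fell with LPS by 0.85. Of the abundant members outside the panel, Zfp580 (17.7 and 22.7 FPKM with LPS, 32.4 and 27.8 FPKM in control), Zfp385a (16.4 and 14.5 FPKM with LPS, 32.2 and 29.3 FPKM in control) and Zfp414 (13.4 and 15.8 FPKM with LPS, 25.6 and 23.7 FPKM in control) fell with LPS by 0.56, 0.95 and 0.72. Of these 3, Zfp385a alone passed at the same median (-0.46), and Zfp580 missed the threshold as deposited without LPS replicate 2 or control replicate 2 (adjusted p of 0.0973 and 0.055). In some members the control libraries disagreed with each other, and these were picked out after their values were seen. Zfp422 had 1.53 and 19.9 FPKM in control, Zfp62 9.61 and 1.89 FPKM, and Zfp292 9.10 and 17.5 FPKM. Zfp292 fell with LPS as deposited (5.77 and 5.59 FPKM, -1.03 ± 0.28 SE, adjusted p = 0.0209), and missed the threshold without either LPS library (0.0839 and 0.0928).

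Many members lie beside near relatives, and calls are given here by chromosomal group. On chromosome 13, 18 members lay between 67038596 and 67755228, 16 of them with the KRAB core. All 12 tested there fell with LPS, with a median of -1.33, 11 of 12 fell at the same median, and 1 fell with Sal-B against LPS. Their control values ran from 1.27 to 8.13 FPKM, and in LPS libraries none was above 1.86 FPKM. Of the 12, 10 passed the filter through control alone, so this count is given as a description. On chromosome 7, 8 of 10 tested members between 29768552 and 30169750 fell, and none rose, with 5 lower at the same median, and 4 of the 10 had passed the filter through control alone. All 7 members between 47835661 and 48445825 on chromosome 6, which lack the core, fell as deposited and 4 at the same median, and 2 of them had passed the filter through control alone. Members of a group share sequence and descent and are not independent. The background for a fall with LPS was 48.9% of all genes as deposited and 26.5% at the same median.

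The group of 20 members on chromosome 17 from 21008941 to 23193252 held Zfp51, Zfp52, Zfp946 and Zfp948. Of its 17 tested members 14 fell with LPS and 1 rose, beside 48.9% and 14.2% of all genes. At the same median 10 fell and 2 rose, beside 26.5% and 28.9% of all genes. With LPS plus Sal-B against LPS 5 fell (29.4%, near the 31.8% of all genes) and none rose, and 4 fell at the same median (23.5%, beside 20.2%). In this group 5 of the 17 had passed the filter through control alone. Zfp52 and Zfp948, whose promoters are printed above, were high in LPS and control libraries and low with LPS plus Sal-B. Zfp760, Zfp943 and Zfp946, in the same group, were already low with LPS. Zfp943, Zfp53, Zfp820 and, further on, Zfp871 were picked out after their values were seen. Zfp53, whose promoter also holds the marked stretch, had 2.76 and 3.23 FPKM with LPS plus Sal-B, 3.58 and 4.26 FPKM with LPS and 6.21 and 7.77 FPKM in control. Zfp820, the other holder, reached at most 0.692 FPKM in a library and was not tested.

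**Figure D5:**
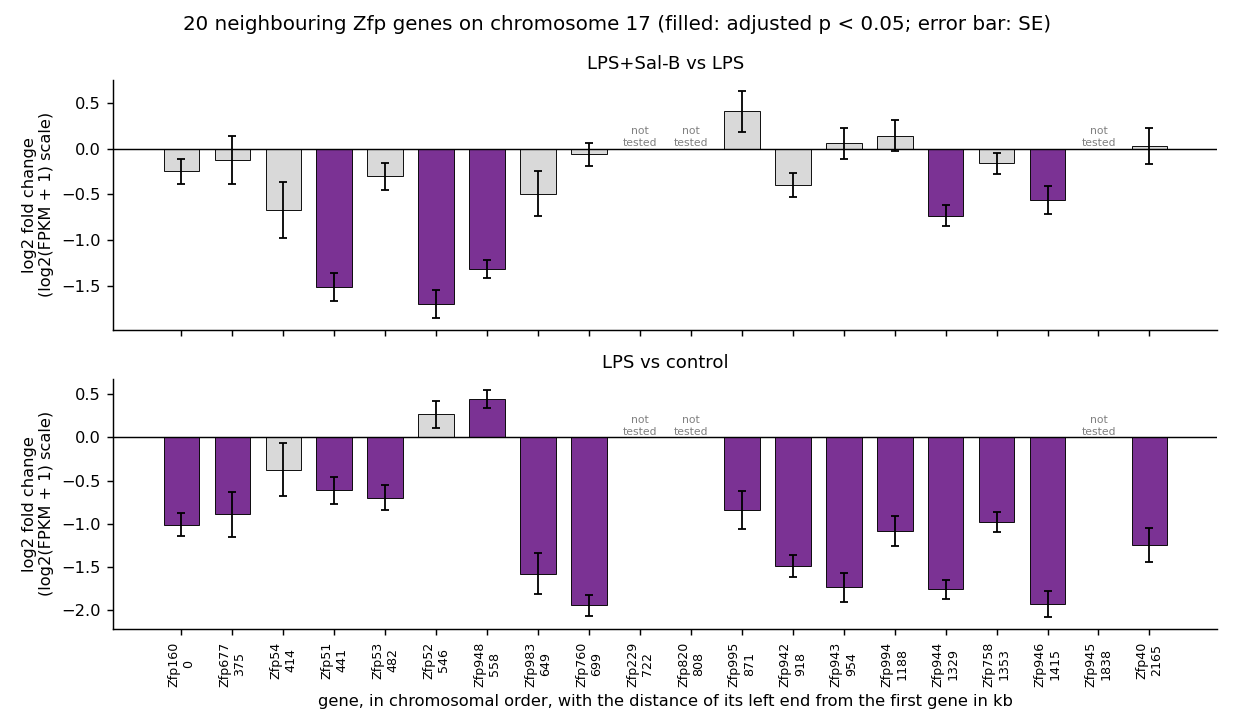
Log2 fold change with its SE for 20 neighbouring Zfp genes of chromosome 17 in order, LPS plus Sal-B against LPS above and LPS against control below, filled where limma's adjusted p was under 0.05, with the distance from the first gene in kb. Falls with LPS reach from -0.61 (Zfp51) to -1.94 (Zfp760), and the largest falls with Sal-B are those of Zfp51, Zfp52 and Zfp948.

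A second group on the same chromosome, 13 members from 32771236 to 33631779, held Zfp811. Of its 12 tested members 10 fell with LPS and Zfp811 alone rose, beside 48.9% lower and 14.2% higher among all genes. At the same median 7 fell, beside 26.5% of all genes. Through control alone 5 of the 12 had passed the filter. Its neighbour Zfp871 had 8.72 and 7.39 FPKM with LPS and 3.93 and 8.59 FPKM in control and did not pass (0.39, with overlapping libraries).

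Other zinc finger families were set beside the Zfp genes. Zbtb proteins pair a BTB domain with fingers. Of 32 tested Zbtb genes 19 fell and 5 rose with LPS (59.4% and 15.6%, beside 48.9% and 14.2% of all genes). At the same median 11 fell and 7 rose, beside 26.5% and 28.9% of all genes. Of 13 tested Zscan and Zkscan genes, whose proteins carry a SCAN domain, 11 fell and none rose, and the same counts held at the same median.

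The KRAB corepressors were all in the table. Of 19 genes 13 fell with LPS and 1 rose as deposited, beside 48.9% and 14.2% of all genes. At the same median 4 fell and 3 rose, beside 26.5% and 28.9% of all genes. Trim28 had 19.1 and 20.8 FPKM with LPS plus Sal-B, 26.2 and 27.3 FPKM with LPS and 40.6 and 39.6 FPKM in control (-0.57 ± 0.09 SE for LPS against control, adjusted p = 0.00304). Scaled to the same median, the change was -0.074 and did not pass. Setdb1 had 6.29 and 6.11 FPKM with LPS plus Sal-B, 6.07 and 6.26 FPKM with LPS and 12.9 and 13.3 FPKM in control, and fell with LPS on both scales (-0.97 and -0.51). Dnmt1, the maintenance methyltransferase, fell by 1.22 as deposited, with 19.5 and 17.3 FPKM in LPS libraries and 50.6 and 38.2 FPKM in control.

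With LPS plus Sal-B against LPS, 4 of 19 corepressors fell and 4 rose, beside 31.8% and 10.5% of all genes. At the same median 2 fell and 6 rose, beside 20.2% and 17.6% of all genes. Mphosph8, the chromodomain subunit of the HUSH silencing complex, had 122 and 124 FPKM with LPS plus Sal-B, 35.1 and 34.3 FPKM with LPS and 29.5 and 29.8 FPKM in control (1.79 ± 0.08 SE against LPS, adjusted p = 0.000843). The other HUSH subunits were not higher. Pphln1 had 8.37 and 9.03 FPKM with LPS plus Sal-B and 13.3 and 13.4 FPKM with LPS, and fell by 0.57 on the log2 scale as deposited, but did not pass at the same median (-0.34, adjusted p = 0.0569). Fam208a had 1.05 and 1.14 FPKM with LPS plus Sal-B and 1.47 and 1.61 FPKM with LPS and did not pass. The histone deacetylases Hdac1 and Hdac2 moved in opposite directions. Hdac1 had 25.98 and 24.95 FPKM with LPS plus Sal-B, against 12.2 and 12.7 FPKM with LPS (0.98 ± 0.12 SE), and Hdac2 had 8.13 and 8.60 FPKM with LPS plus Sal-B, against 19.98 and 18.4 FPKM with LPS (-1.11 ± 0.09 SE). Both held at the same median (1.22 and -0.89).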

How the data were processed

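RNA from 6 RAW264.7 libraries was made with Trizol and stranded Illumina kits, per the labels' protocols, which name poly(A) selection or ribosomal RNA removal without saying which was used. Reads were processed with cutadapt, HISAT2 2.0.5 and StringTie on GRCm38, per the submitters' processing notes, and the deposited FPKM values are named as such per the file headers. FPKM are not counts, and the table lists only genes whose highest group mean is at least 0.5 FPKM, so depth is known only roughly and a gene outside the table was not analysed here. No column of the table fell outside the labelled samples.

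Values were taken as log2(FPKM + 1). Genes with at least 1 FPKM in at least 2 libraries (10014) were fitted with limma 3.58.1 (R 4.3.3, trend on the mean level) in a single model of 3 groups with 3 residual degrees of freedom, without a replicate block. P-values are two-sided and were adjusted by Benjamini and Hochberg over all genes tested, with 0.05 as the threshold. The fit was tested on simulated data. Each library was also scaled to the same median. Alternatives were pseudocounts of 0.1 and 0.5, other filters, quantile and equal-total scaling, the compared groups alone, no trend, each treated pair averaged to 1 sample, a replicate block and each library left out.

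Fingers and the KRAB core were searched in translated GENCODE M21 transcripts. Named members were, per comparison, the 8 largest rises and 8 largest falls among those with an adjusted p under 0.05, groups that do not overlap and a higher group mean of at least 2 FPKM; the 6 of highest mean; a panel of 23; and 19 corepressors. The members and lists were chosen with earlier results of these data known.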

Additional observations from a re-analysis of the deposited data

How the results depend on the processing

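The direction of the Zfp medians held under every alternative run. Members higher with LPS numbered 8, and 24 at the same median, 29 after quantile scaling, 2 at the same total, 4 with the compared groups alone, 1 with treated pairs averaged, and 2 to 14 with a library left out. The 180 lower became 104 after quantile scaling and 71 with pairs averaged. The median of -0.84 became -1.16 and -0.998 with pseudocounts of 0.1 and 0.5, -0.77 with no filter, -0.78 with a mean of at least 1 FPKM, -0.48 at the same median, -0.38 after quantile scaling, -0.94 at the same total and -0.89 to -0.77 with a library left out.

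With LPS plus Sal-B against LPS, the 18 higher became 29 at the same median, 28 with the compared groups alone, 0 with pairs averaged and 2 to 28 with a library left out. The 56 lower became 37 at the same median, 24 after quantile scaling, 31 at the same total, 89 with the compared groups alone, 0 with pairs averaged and 12 to 89 with a library left out. The median of -0.18 became -0.38 and -0.25 with the smaller pseudocounts, -0.14 with no filter, -0.093 at the same median, -0.038 after quantile scaling and -0.079 at the same total. Averaged pairs left 1 residual degree of freedom in limma, and unadjusted p under 0.05 was then met by 4 higher and 17 lower.

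With LPS plus Sal-B against control, the 9 higher became 30 at the same median, 35 after quantile scaling, 4 with pairs averaged and 6 to 16 with a library left out, and the 191 lower became 114 after quantile scaling. The median of -1.02 became -1.64 and -1.29 with the smaller pseudocounts, -0.92 with no filter, -0.97 with a mean of at least 1 FPKM, -0.61 at the same median, -0.38 after quantile scaling and -1.09 to -0.94 with a library left out.

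In subsets added after seeing the data, the falls with LPS among members with a mean of at least 2 FPKM (81) became 50 at the same median, 44 after quantile scaling and 27 with pairs averaged. Those with the KRAB core (100) became 62 after quantile scaling and 49 with pairs averaged, and those without it (80) became 49, 42 and 22. The direction turned at the same median and after quantile scaling for Zfp318 (0.23 and 0.24), Zfp148 (0.21 and 0.12) and Zfp638 (0.058 and 0.24), and at the same median for Zfp580 (0.015), all in LPS plus Sal-B against control. Of 88 calls on named members, 31 held under all alternatives run. The causes were not tested.

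Deviations from the group mean were almost uncorrelated between libraries of the same replicate number in different groups. The correlation was 0.035 for LPS plus Sal-B with LPS, 0.0037 for LPS plus Sal-B with control and 0.014 for LPS with control. These values show no shared deviation by replicate number. They cannot tell whether cultures or preparations were paired, because paired libraries need not share such deviations. With the replicate block the counts higher and lower were 8 and 177 (LPS against control), 14 and 50 (Sal-B added to LPS) and 8 and 192 (both agents against control), and 3 named calls missed the threshold (Zfp598 and Zfp142 with LPS, Zfp622 with LPS plus Sal-B against LPS). Members near 1 FPKM rest on few fragments, which limits the precision of their values.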
